A study of Mus musculus with 16 samples.

Results

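Propranolol was given to brain endothelial cells that had lost Ccm3, and its effect on their RNA is described here from 6 of the 16 libraries of the series. The 6 libraries were the 3 labelled CCM3KO with propranolol at 10 µM for 24 h (KO+P) and the 3 labelled CCM3KO and left untreated (KO), chosen by these labels alone and matched by biological replicate number. The cells were mouse brain microvascular endothelial cells (mBMEC), isolated from adult mice of 8 to 10 weeks that carry a floxed Pdcd10 (Ccm3) allele on both chromosomes and the Cdh5(PAC)-CreERT2 transgene. In that transgene the Cdh5 promoter drives a Cre recombinase in endothelial cells, and 4-hydroxytamoxifen (4-OHT) switches it on. KO cultures had received 4-OHT and WT cultures, of the same floxed genotype, had not, so 4-OHT exposure and genotype cannot be told apart between WT and KO, whereas KO and KO+P shared both. Each culture came from a pool of brains, and a replicate number is called a culture below. The other libraries were 3 untreated WT, 2 WT with propranolol at 10 µM for 24 h (WT+P, replicates 1 and 2), and 5 with rapamycin at 100 nM for 24 h, namely 2 WT and 3 KO (KO+R). Levels are given in CPM, the counts of a gene scaled to the size of its library. TPM, which also divides by transcript length, is used where stated. Sums of CPM over marker genes are not corrected for length.

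Propranolol blocks β-adrenergic receptors, which couple to the stimulatory G protein and raise cyclic AMP (cAMP) when occupied by adrenaline or noradrenaline. It is also an amphiphilic base, and bases of this kind collect in acidic compartments such as lysosomes, through which cholesterol taken up from lipoproteins passes on its way to the endoplasmic reticulum. When sterol in the endoplasmic reticulum is low, the membrane-bound factor SREBP2 is carried to the Golgi, cut, and switches on the genes of cholesterol synthesis and uptake. Ccm3 (Pdcd10) is among the genes whose loss gives cerebral cavernous malformations, and in its absence endothelial cells raise the transcription factors Klf2 and Klf4 through the kinase MEKK3. The study asked whether the drug, proposed as a treatment for cavernomas, moves the transcriptome of the mutant cells.

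Ccm3 itself was checked first. Pdcd10 stood at 9.72, 11.0 and 9.73 CPM in KO replicates 1, 2 and 3, and at 16.7, 13.9 and 13.1 CPM in KO+P (log2 fold change 0.52, edgeR adjusted p = 0.443). All 6 libraries lay below WT replicates 2 and 3 and both WT+P libraries, whereas the library labelled WT replicate 1 had 11.5 CPM, at the KO level, and the counts of called genes were therefore also taken without it. Without that library the comparison of KO+P with KO called 21 genes higher and 1 lower, 20 of them the same genes as with it. The 3 KO+P libraries lay above the 3 KO libraries without overlap, by less than the residual spread allowed the test to call. The gene sum includes any exons that recombination leaves in place.

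The 6 libraries held 18830503 to 26005907 counts, and all 16 held 18830503 to 26203339; KO+P replicate 3 was the shallowest. Endothelial markers were abundant (8 of 8 tested, summed level 10574 to 11499 CPM in KO and 6617 to 9906 CPM in KO+P), in keeping with the labelled cell type. Same-numbered KO and KO+P libraries deviated together from their group means, and the comparison was therefore made within cultures. On the first principal component of the 6 libraries, which held 46.74% of the variance, propranolol moved culture 1 from 0.1149 to 90.17, culture 2 from -42.1 to 7.74 and culture 3 from -40.18 to -15.75. The cultures thus moved in the same direction by unequal amounts, and culture 3 moved least.

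Of 14838 genes tested, 20 rose and 1 fell with propranolol in KO cells (edgeR quasi-likelihood test with culture as a block, adjusted p under 0.05 and a fold change above 1.5), which is 0.135% and 0.00674% of the genes tested. The 20 were enzymes and regulators of sterol synthesis for the larger part: 12 of them were on the list of cholesterol synthesis and SREBP2 targets. The others were Fasn, Slc25a1 and Pcyt2 of fatty acid and phospholipid synthesis, Nupr1 and Psph of the ATF4 stress list, and Sox11, Adm2 and Stk38l. The gene that fell was Exosc6. Each of the 20 was higher in 3 of 3 KO+P libraries than in any KO library. At an unadjusted p under 0.05, 1750 genes were higher (11.8%) and 1966 lower (13.2%), and the libraries of the groups did not overlap for 1422 higher genes (9.58%) and 1351 lower genes (9.11%). The counts of KO+P against KO in the gene lists below are to be read beside these shares. The number called rested on the fit: DESeq2 with the same block called 421 higher and 513 lower (2.84% and 3.46%), and edgeR without the block called 1 gene, Exosc6. It rested on single libraries too: leaving out KO+P replicate 3 gave 661 higher and 916 lower by edgeR (4.45% and 6.17%), leaving out KO+P replicate 1 gave 9 calls and leaving out KO replicate 1 gave 1. Leaving out KO replicate 2, KO replicate 3 or KO+P replicate 2 gave 0, with 2889, 3045 and 2259 genes at an unadjusted p under 0.05.

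**Figure D1:**
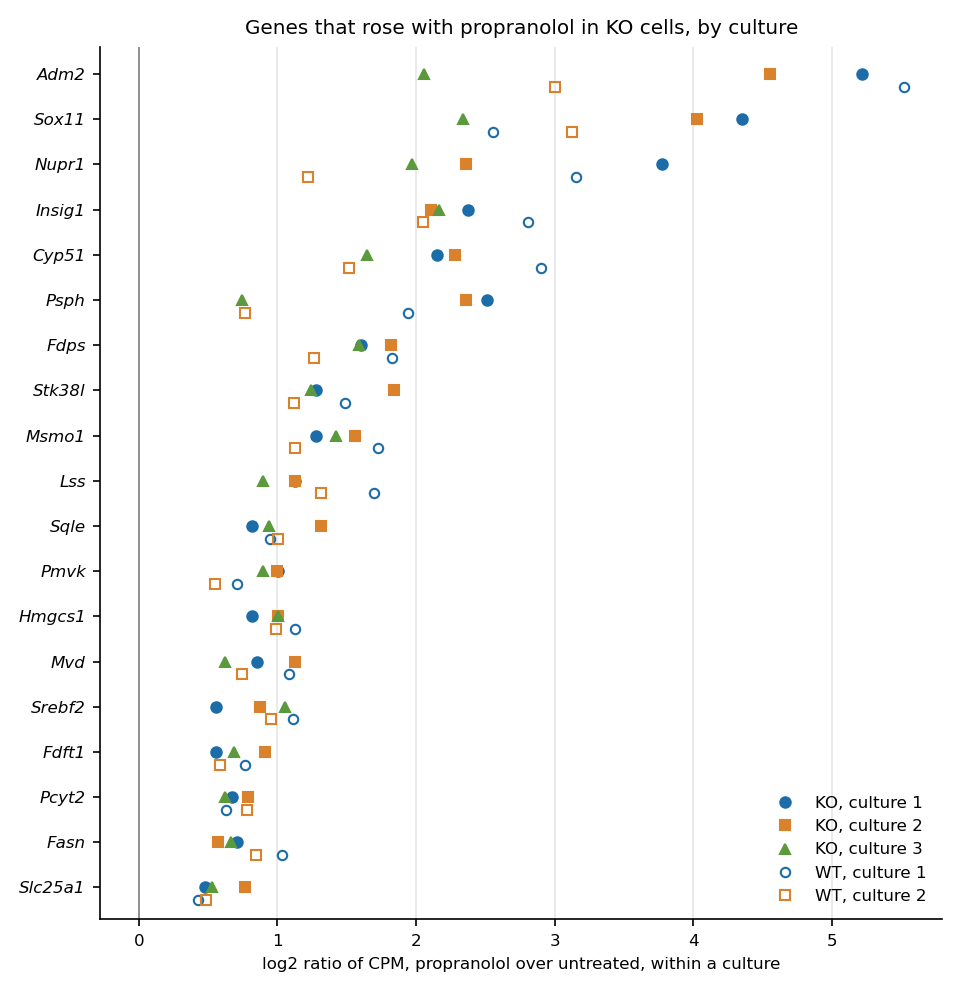
Each row is a named gene that rose in KO+P over KO, and the x axis gives the log2 ratio of CPM, propranolol over untreated, within a culture; filled symbols are the 3 KO cultures and open symbols the 2 WT cultures. All ratios lie to the right of 0; those of Fdps span 1.60, 1.82 and 1.59 in KO cultures 1, 2 and 3, whereas Psph spans 2.51, 2.36 and 0.75.

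The largest set of called genes makes cholesterol. Of the 24 tested genes of cholesterol synthesis and SREBP2 targets, 12 rose, 0 fell, 22 were higher at an unadjusted p under 0.05 and 19 had KO+P libraries above all KO libraries, against 0.135%, 11.8% and 9.58% of all genes. The median log2 fold change of the list was 0.89, beside -0.01 over all genes tested. Its median was similar in every culture, at 0.83, 1.07 and 0.91 in KO cultures 1, 2 and 3. DESeq2 called 19 of the 24 higher, edgeR called 19 when KO+P replicate 3 was left out, 7 when it was KO+P replicate 1, and 0 without the block.

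Regulators of the pathway rose with its enzymes. Insig1, the endoplasmic reticulum protein that holds the SREBP complex back when sterol is plentiful and is itself an SREBP target, had 77.1, 91.1 and 46.7 CPM in KO and 399, 392 and 209.8 CPM in KO+P. Every treated library thus lay far above every untreated one, and the mean went from 71.6 ± 22.7 to 334 ± 107 CPM (SD, n = 3; log2 fold change 2.21, SE 0.29, adjusted p = 0.0138, edgeR). Srebf2, which encodes SREBP2, had 89.1, 74.7 and 61.3 CPM in KO and 131, 137 and 127 CPM in KO+P (log2 fold change 0.83, SE 0.13, adjusted p = 0.0272). Its treated libraries were nearly equal, and all lay above the untreated ones. The genes of this list named here that were not called were chosen after their values were seen.

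Most enzymes from HMG-CoA to lanosterol rose. Hmgcs1, which makes HMG-CoA, had 44.4, 53.5 and 37.6 CPM in KO and 78.3, 107 and 75.6 CPM in KO+P (log2 fold change 0.95, SE 0.12, adjusted p = 0.0138). The groups did not overlap. Of the steps from mevalonate to farnesyl diphosphate, Pmvk (log2 fold change 0.97, adjusted p = 0.00894), Mvd (log2 fold change 0.88, adjusted p = 0.0409) and Fdps (log2 fold change 1.67, adjusted p = 0.00626) rose, and Idi1 (log2 fold change 1.17, adjusted p = 0.0522) and mevalonate kinase, Mvk (log2 fold change 0.23, adjusted p = 0.316), were not called. Fdps (chr3:89000888-89019213, GRCm39), farnesyl diphosphate synthase, had the smallest p of all genes tested, with 47.2, 44.8 and 29.0 CPM in KO and 143, 158 and 87.4 CPM in KO+P. Its treated libraries were about 3 times the untreated library of the same culture in each of the 3 cultures (log2 ratios 1.60, 1.82 and 1.59).

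In the sterol branch, some of the genes from squalene formation onward rose. These were Fdft1 (log2 fold change 0.72, adjusted p = 0.0138), Sqle (log2 fold change 1.04, adjusted p = 0.0197), Lss (log2 fold change 1.06, adjusted p = 0.0428), Cyp51 (log2 fold change 2.06, adjusted p = 0.0144) and Msmo1 (log2 fold change 1.42, adjusted p = 0.00894). Cyp51, lanosterol 14α-demethylase, went from 14.1, 16.9 and 11.5 CPM to 62.7, 82.4 and 36.2 CPM, and Msmo1, methylsterol monooxygenase, from 41.2, 33.2 and 25.5 CPM to 100.0, 98.1 and 68.3 CPM. The groups did not overlap for either. Other enzymes that act after lanosterol were not called, with log2 fold changes of 0.85 for Nsdhl (adjusted p = 0.0543), 0.83 for Hsd17b7 (0.0614), 0.90 for Sc5d (0.0608), 0.72 for Tm7sf2 (0.101), 0.40 for Dhcr7 (0.102) and 0.31 for Ebp (0.0918). The sterol carrier Stard4 (log2 fold change 0.42, adjusted p = 0.145) and the thiolase Acat2, which acts before HMG-CoA (log2 fold change 0.25, adjusted p = 0.289), had smaller values. Per transcript length the pathway's most abundant member among those named here that rose was Insig1 in treated cells (45.01 TPM in KO and 201 TPM in KO+P), beside Fdps (62.0 TPM in KO and 191 TPM in KO+P) and Hmgcs1 (23.3 TPM in KO and 42.2 TPM in KO+P). Fdft1, Cyp51, Mvd, Hmgcs1, Srebf2, Sqle and Lss share exonic bases with other genes, and the reads of such genes cannot be assigned by strand because the libraries are unstranded.

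The promoters of these genes are shown because the list was drawn up as targets of SREBP2. The windows are the 250 bases before the start of the gene in RefSeq, on the strand of the gene, 5′ to 3′, and 17 of the 24 genes matched an entry. Capitals mark the sterol regulatory element TCACNCCAC and the CCAAT box, the site of NF-Y, on either strand (ATTGG is the box on the other strand). Hmgcs1 (chr13:119690101-119690350, + strand, GRCm38.p6) is the 1 gene of the 17 whose windows hold a sterol element in this form, 137 bases before the start, together with 3 CCAAT boxes. Insig1 (chr5:28071162-28071411, + strand) holds 1 CCAAT box, and Msmo1 (chr8:64733579-64733828, - strand) holds 3.
Hmgcs1: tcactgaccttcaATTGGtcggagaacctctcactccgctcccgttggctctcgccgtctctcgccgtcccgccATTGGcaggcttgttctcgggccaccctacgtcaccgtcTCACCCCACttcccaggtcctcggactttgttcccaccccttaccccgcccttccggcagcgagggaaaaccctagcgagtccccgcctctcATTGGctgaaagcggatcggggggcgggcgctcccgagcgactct
Insig1: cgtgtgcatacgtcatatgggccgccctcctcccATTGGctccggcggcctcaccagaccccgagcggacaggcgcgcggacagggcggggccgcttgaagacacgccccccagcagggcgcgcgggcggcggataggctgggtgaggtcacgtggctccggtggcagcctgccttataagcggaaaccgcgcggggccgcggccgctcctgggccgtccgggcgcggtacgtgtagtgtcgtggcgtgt
Msmo1: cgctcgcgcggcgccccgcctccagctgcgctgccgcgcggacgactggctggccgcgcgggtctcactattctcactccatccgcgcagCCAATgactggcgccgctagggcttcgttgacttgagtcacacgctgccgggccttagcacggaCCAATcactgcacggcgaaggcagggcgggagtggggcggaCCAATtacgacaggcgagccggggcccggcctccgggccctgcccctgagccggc
Some genes have more than 1 start and so more than 1 window. A CCAAT box was in at least 1 window of 16 of the 17 genes (94.1%), beside 37.5% of the 27025 genes with a RefSeq window, and the sterol element of 1 of the 17 (5.88%), beside 1.22%. Counted by window, the box was in 16 of the 20 windows of these genes (80%), beside 33.8% of 32851. These are matches of letters and not sites shown to be bound. The mitosis list, whose genes had lower levels under propranolol (below), held the CCAAT box in 23 of 27 genes (85.2%).

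Fatty acid and phospholipid genes took part to a smaller degree. Of 17 tested genes of fatty acid synthesis and SREBP1 targets, 1 rose, 12 were higher at an unadjusted p under 0.05, 0 were lower, and the median log2 fold change was 0.65. Fasn, fatty acid synthase, rose from 168, 238 and 188 CPM to 275, 354 and 297 CPM (log2 fold change 0.65, SE 0.09, adjusted p = 0.0158). The desaturase Scd2 had 374, 448 and 269 CPM in KO and 714, 958 and 938 CPM in KO+P, with no overlap (log2 fold change 1.26, adjusted p = 0.0737), and Srebf1, which encodes SREBP1, had 130.4, 126 and 118 CPM in KO and 160.5, 151 and 176 CPM in KO+P (log2 fold change 0.38, adjusted p = 0.0744). Values of Acsl3 (log2 fold change 1.30, adjusted p = 0.0608), Fads1 (log2 fold change 0.93, adjusted p = 0.0619) and Mid1ip1 (log2 fold change 0.96, adjusted p = 0.0744) were higher without a call. Outside the list, Slc25a1, which exports citrate from mitochondria as the carbon source of lipid synthesis, rose with 130.5, 109 and 106 CPM in KO and 182, 185 and 153 CPM in KO+P (log2 fold change 0.59, SE 0.09, adjusted p = 0.0272). Pcyt2, the enzyme that makes CDP-ethanolamine for phosphatidylethanolamine, rose with 24.9, 26.1 and 22.3 CPM in KO and 39.9, 45.3 and 34.4 CPM in KO+P (log2 fold change 0.70, SE 0.10, adjusted p = 0.0235).

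Genes of sterol export, which the nuclear receptor LXR switches on when oxysterols are plentiful, had lower medians in cultures 1 and 2. The median log2 ratios were -0.60, -0.37 and 0.01 in cultures 1, 2 and 3, and members differed in sign. Of 10 tested LXR targets and sterol efflux genes 0 were called, 2 were higher and 3 lower at an unadjusted p under 0.05, and the median log2 fold change was -0.27. Of the 10 log2 fold changes, 4 were above 0 and 6 below it. Lpcat3 was higher in each culture, with 56.3, 39.8 and 44.8 CPM in KO and 75.8, 59.2 and 55.3 CPM in KO+P (log2 fold change 0.44, adjusted p = 0.0719), though the groups overlapped. Abca1, the cholesterol exporter to apolipoprotein A1, had 254, 162 and 253 CPM in KO and 45.7, 31.8 and 205 CPM in KO+P (log2 fold change -1.59, adjusted p = 0.102). Its levels in KO+P replicates 1 and 2 were far below every KO library, whereas KO+P replicate 3 lay within the KO range. Abcg1 had 134, 153 and 148 CPM in KO and 25.0, 38.5 and 128 CPM in KO+P (log2 fold change -1.42, adjusted p = 0.155), the same order of cultures with no overlap, and Apoe had 2641, 702 and 1744 CPM in KO and 679, 440.3 and 1622 CPM in KO+P (log2 fold change -0.84, adjusted p = 0.189). Without KO+P replicate 3, edgeR called 5 of the 10 lower, and DESeq2 over all libraries called 1 lower.

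**Figure D2:**
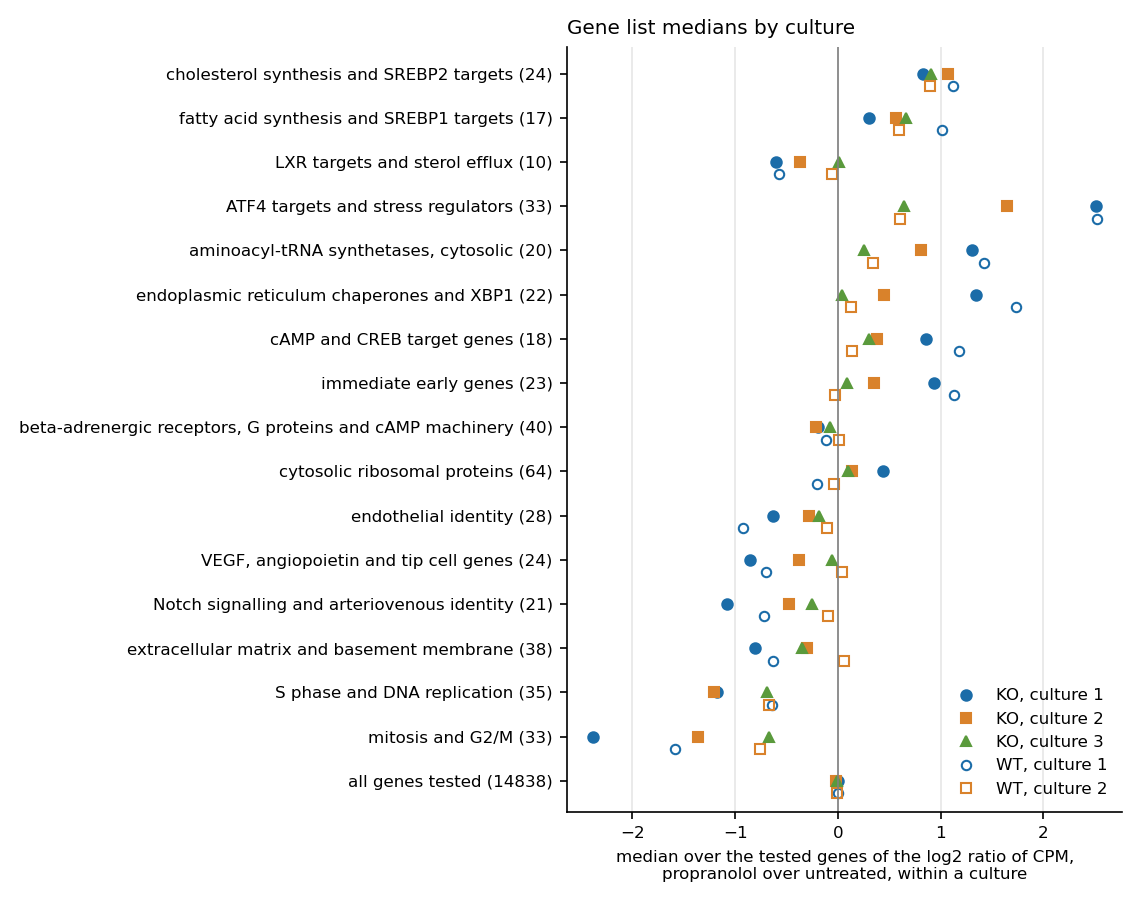
Each row is a gene list with its number of tested genes, and the x axis gives the median over those genes of the log2 ratio of CPM, propranolol over untreated, within a culture; filled symbols are KO cultures 1 to 3 and open symbols WT cultures 1 and 2. The KO symbols of the cholesterol list sit together between 0.83 and 1.07, whereas those of the ATF4 list spread from 0.64 in culture 3 to 2.51 in culture 1.

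The second set was the list of amino acid and stress response genes drawn up as targets of ATF4, a factor whose mRNA is translated when the initiation factor eIF2α is phosphorylated. Whether ATF4 drove their change was not tested. Of 33 tested ATF4 targets and stress regulators, 2 rose, 0 fell, 28 were higher at an unadjusted p under 0.05 and 26 were higher without overlap, against 0.135%, 11.8% and 9.58% of all genes for the rises, the p-values and the overlap. All 33 log2 fold changes were above 0 with a median of 1.57. The size differed by culture, with medians of 2.51, 1.64 and 0.64 in cultures 1, 2 and 3. This order of cultures recurred in the synthetase, chaperone, mitosis and endothelial lists below, and KO+P replicate 3, with the smallest change, was also the shallowest library. DESeq2 called 25 of the 33 higher, edgeR called 26 when KO+P replicate 3 was left out and 0 when it was KO+P replicate 1.

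Nupr1, a small stress-induced chromatin protein, had 7.86, 15.7 and 9.10 CPM in KO and 108, 80.9 and 36.0 CPM in KO+P (log2 fold change 2.73, SE 0.37, adjusted p = 0.0158). Psph, the last enzyme of serine synthesis, had 17.7, 15.2 and 16.9 CPM in KO and 102, 78.7 and 28.4 CPM in KO+P (log2 fold change 1.96, SE 0.32, adjusted p = 0.0409). Both were higher in every culture, and the ratio of both was smallest in culture 3. Atf4 had 220.4, 214 and 216 CPM in KO and 1047, 583 and 414 CPM in KO+P, so that its untreated libraries agreed closely and its treated ones spread widely (log2 fold change 1.57, adjusted p = 0.0601). Chac1, a glutathione-degrading enzyme and an ATF4 target, had 22.4, 51.2 and 22.9 CPM in KO and 670.2, 485 and 142 CPM in KO+P, a mean of 32.2 ± 16.5 against 432 ± 268 CPM (SD, n = 3), with an adjusted p of 0.0504 and a log2 fold change of 3.60. Asns, asparagine synthetase, had 40.6, 50.3 and 36.6 CPM in KO and 452, 275 and 102 CPM in KO+P (log2 fold change 2.57, adjusted p = 0.0555).

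The members covered amino acid import, serine and glycine synthesis, and feedback regulators. Among transporters, the cystine carrier Slc7a11 had 10.2, 12.2 and 28.9 CPM in KO and 189.5, 122 and 45.02 CPM in KO+P (log2 fold change 3.05, adjusted p = 0.0717), and Slc7a5, the large neutral amino acid carrier of the blood-brain barrier, had 100.2, 87.3 and 93.3 CPM in KO and 344, 267 and 147 CPM in KO+P (log2 fold change 1.40, adjusted p = 0.0766). The groups did not overlap for either carrier. Phgdh (log2 fold change 1.98, adjusted p = 0.0980) and Psat1 (log2 fold change 2.12, adjusted p = 0.0912), the first enzymes of serine synthesis, and Mthfd2 (log2 fold change 2.93, adjusted p = 0.0702) and Shmt2 (log2 fold change 1.70, adjusted p = 0.0733), of mitochondrial one-carbon metabolism, were not called. Ddit3, which encodes the proapoptotic factor CHOP, had 20.2, 24.2 and 21.5 CPM in KO and 202, 75.6 and 41.9 CPM in KO+P (log2 fold change 2.05, adjusted p = 0.0759), and the pseudokinase Trib3 had 76.2, 43.6 and 65.0 CPM in KO and 320.5, 147 and 95.4 CPM in KO+P (log2 fold change 1.53, adjusted p = 0.0702). In both genes culture 1 was highest under propranolol and the groups did not overlap. Phgdh, Psat1, Mthfd2, Shmt2, Ddit3 and Trib3 were chosen after their values were seen, and Ddit3 shares most of its exonic bases with other genes.

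The C/EBP-ATF response element (CARE), the composite site of ATF4 and its C/EBP partners, was sought as TGATGNAA on both strands in the same 250-base windows, of which 28 of the 33 genes matched. It was present in at least 1 window of 7 of the 28 genes (25%), beside 3.91% of genes with a RefSeq window, and by window in 7 of 35 (20%), beside 3.45%. The genes were Asns, Atf3, Chac1, Nupr1, Pck2, Slc7a11 and Vldlr. The windows of Nupr1, the member with the smallest p, and of Chac1, with the largest fold change among those holding the element, are shown with it in capitals (TTGCATCA is the other strand). They lie at chr7:126625471-126625720 (- strand) and chr2:119350992-119351241 (+ strand) of GRCm38.p6, and the element begins 110 and 193 bases before the start.
Nupr1: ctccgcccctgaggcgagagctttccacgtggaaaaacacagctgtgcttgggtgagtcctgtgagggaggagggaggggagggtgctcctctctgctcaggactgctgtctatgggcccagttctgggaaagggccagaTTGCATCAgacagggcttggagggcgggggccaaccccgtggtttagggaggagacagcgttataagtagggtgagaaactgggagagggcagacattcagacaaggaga
Chac1: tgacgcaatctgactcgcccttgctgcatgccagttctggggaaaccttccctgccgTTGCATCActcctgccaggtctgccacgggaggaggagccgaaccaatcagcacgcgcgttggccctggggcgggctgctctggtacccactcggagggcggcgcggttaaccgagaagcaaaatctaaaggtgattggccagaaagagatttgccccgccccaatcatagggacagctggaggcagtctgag

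Aminoacyl-tRNA synthetases, which load amino acids onto tRNAs and are ATF4 targets in part, followed the same order of cultures. Of 20 tested cytosolic synthetases 0 were called by edgeR and 14 were higher and 0 lower at an unadjusted p under 0.05, with a median log2 fold change of 0.86 and culture medians of 1.30, 0.81 and 0.25. DESeq2 called 13 of them higher. Sars1, the seryl-tRNA synthetase, had 184, 173 and 168 CPM in KO and 616, 408 and 252 CPM in KO+P (log2 fold change 1.22, adjusted p = 0.0619). Cars1 (log2 fold change 1.10, adjusted p = 0.0555), Yars1 (log2 fold change 1.13, adjusted p = 0.0619), Gars1 (log2 fold change 1.12, adjusted p = 0.0667) and Mars1 (log2 fold change 1.08, adjusted p = 0.0652) had the other smallest p-values. The alanyl-tRNA synthetase Aars1 had 138, 166 and 146 CPM in KO and 377, 298 and 198 CPM in KO+P (log2 fold change 0.93, adjusted p = 0.0744), and it is taken up again beside Exosc6, since it was chosen for its overlap with that gene.

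Chaperones of the endoplasmic reticulum differed widely between cultures. Of 22 tested genes of endoplasmic reticulum chaperones and XBP1 0 were called, 7 were higher and 0 lower at an unadjusted p under 0.05, and the culture medians were 1.35, 0.45 and 0.04. Hspa5, which encodes the chaperone BiP, had 384, 512 and 452 CPM in KO and 4104, 1217 and 490.2 CPM in KO+P (log2 fold change 1.82, adjusted p = 0.158). Treated culture 1 was thus far above the others, and treated culture 3 lay within the range of the untreated libraries. Sdf2l1, chosen after its values were seen, had 13.6, 18.7 and 19.4 CPM in KO and 158, 27.4 and 15.2 CPM in KO+P (log2 fold change 1.56, adjusted p = 0.258), and Herpud1, of the degradation machinery, had 64.5, 65.6 and 72.9 CPM in KO and 360.3, 156 and 106 CPM in KO+P (log2 fold change 1.47, adjusted p = 0.102). DESeq2 called 2 of the 22 higher.

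Other stress lists moved less. Of 18 tested heat shock proteins 0 were called and 7 were higher at an unadjusted p under 0.05 (median log2 fold change 0.23); Hspa1a, an inducible Hsp70, had 6.24, 11.2 and 11.3 CPM in KO and 80.6, 26.2 and 17.6 CPM in KO+P (log2 fold change 1.94, adjusted p = 0.155). Of 24 tested NRF2 and antioxidant genes 0 were called and 10 were higher (median 0.19); Hmox1, heme oxygenase 1, had 645, 873 and 1081 CPM in KO and 3804, 2156 and 965 CPM in KO+P (log2 fold change 1.48, adjusted p = 0.133), which places culture 3 within the KO range. Sqstm1, the autophagy receptor p62, had 1444, 1404 and 1699 CPM in KO and 6647, 3649 and 2061 CPM in KO+P (log2 fold change 1.37, adjusted p = 0.0918), and of the 31 autophagy genes tested 0 were called and 9 were higher (median 0.08). DESeq2 called 1 heat shock, 4 NRF2 and 1 autophagy gene higher and 0 lower. In each of these examples culture 1 was the highest treated library.

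Another 3 genes rose outside the lists of metabolism and stress. Sox11, a SOX transcription factor of neural and mesenchymal progenitors, had 1.12, 3.45 and 0.933 CPM in KO and 24.5, 57.4 and 5.06 CPM in KO+P (log2 fold change 3.80, SE 0.49, adjusted p = 0.0138). Its range was wide in KO+P, and the lowest treated library was above the highest untreated one. Adm2, which encodes the vasoactive peptide intermedin of the calcitonin family, had 0.271, 0.228 and 0.133 CPM in KO and 13.2, 7.25 and 0.826 CPM in KO+P (log2 fold change 4.76, SE 0.63, adjusted p = 0.0195), so that it was nearly absent without propranolol. Stk38l, the Hippo-related kinase NDR2, had 22.2, 39.5 and 25.5 CPM in KO and 53.8, 142 and 60.4 CPM in KO+P (log2 fold change 1.49, SE 0.23, adjusted p = 0.0281). Sox11 was the only called gene among the 7 tested SOX factors, of which Sox18 had 1231, 694 and 989.5 CPM in KO and 103.8, 130.1 and 646 CPM in KO+P (log2 fold change -2.002, adjusted p = 0.136) and Sox17 had 169.6, 158 and 165 CPM in KO and 140.4, 278 and 213 CPM in KO+P (log2 fold change 0.32, adjusted p = 0.320).

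Exosc6, a subunit of the RNA exosome, was the gene that fell. It had 18.8, 9.94 and 17.8 CPM in KO, from 262 to 485 counts a library, and 0 counts in all 3 KO+P libraries, at least 338.8-fold lower when 3 counts are allowed over the treated group (edgeR adjusted p = 0.0138). It also had 0 counts in both WT+P libraries, beside 16.8, 25.5 and 13.8 CPM in WT, and 222 to 575 counts in the 5 rapamycin libraries. Exosc6 was thus at 0 in all 5 propranolol libraries and in no other. All of its exonic bases (chr8:111782971-111784296, GRCm39, + strand) lie within exons of Aars1 on the same strand, so the reads of the pair were divided between their transcripts by the quantification, and the fall of Exosc6 is uncertain. Over the same libraries Aars1 had 3278 to 4364 counts in KO and 3840 to 9046 in KO+P. Without genes that share exonic bases, 11 genes were called and all 11 had risen.

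**Figure D3:**
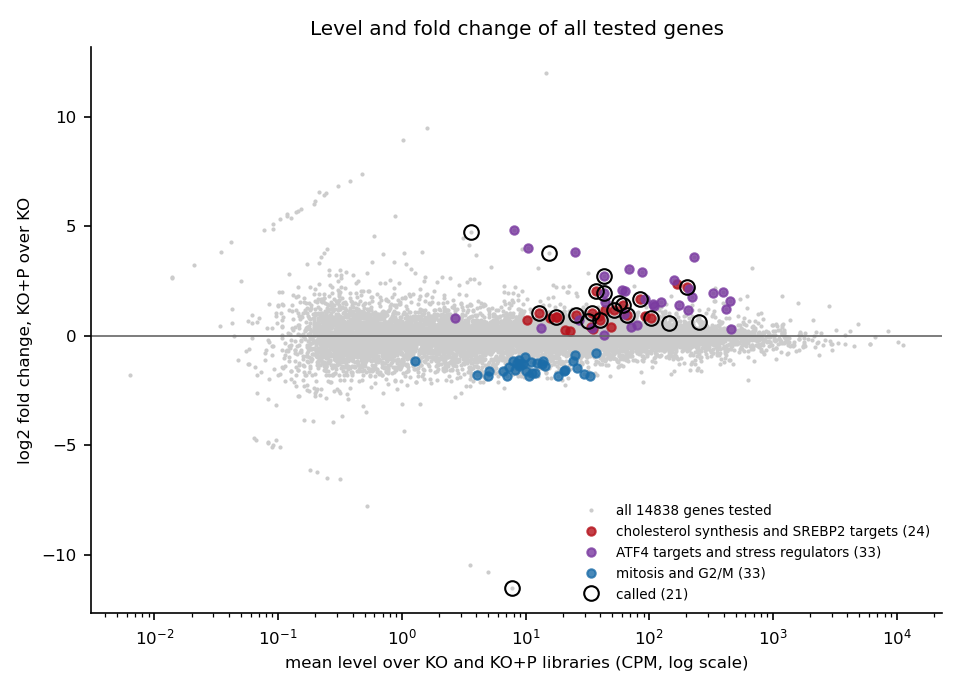
Each point is a tested gene; the x axis gives its mean level over the 6 libraries in CPM on a log scale and the y axis its log2 fold change, KO+P over KO. Circles mark the 21 called genes; the 24 cholesterol genes and the 33 ATF4 genes lie above 0 and the 33 mitosis genes below it, and the lone called gene below 0 is Exosc6.

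Of the receptors that the drug blocks, Adrb1, the β1 receptor, had 3 to 8 counts a library in KO and 1 to 6 in KO+P and was below the filter. Adrb3, the β3 receptor, had 0.116, 1.48 and 0.977 CPM in KO and 0.167, 1.58 and 0.620 CPM in KO+P (log2 fold change -0.13, adjusted p = 0.876), with overlapping groups. On the TPM scale Adrb1 reached 0.06676 to 0.2003 and Adrb3 0.06785 to 1.248 in KO, so both were scarcely expressed. Adrb3 shares exonic bases with other genes.

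Of 40 tested genes of β-adrenergic receptors, G proteins and cAMP machinery 0 were called by edgeR, with a median log2 fold change of -0.17. At an unadjusted p under 0.05, 4 were higher and 7 lower, beside 11.8% and 13.2% of all genes. Without overlap 3 were higher and 9 lower, beside 9.58% and 9.11% of all genes. Of the 40 log2 fold changes, 12 were above 0 and 28 below it. DESeq2 called 1 higher and 3 lower. Arrb1, β-arrestin 1, which desensitizes and internalizes these receptors, had 421, 228 and 272 CPM in KO and 90.9, 79.4 and 209.9 CPM in KO+P (log2 fold change -1.26, adjusted p = 0.105). The cAMP phosphodiesterases Pde4a (18.5, 18.03 and 17.9 CPM in KO and 9.12, 10.8 and 14.6 CPM in KO+P; log2 fold change -0.67, adjusted p = 0.0919) and Pde8a (log2 fold change -0.52, adjusted p = 0.107) were lower without overlap, and the regulatory subunit of protein kinase A Prkar2b had 9.14, 13.7 and 16.3 CPM in KO and 31.0, 32.2 and 19.5 CPM in KO+P (log2 fold change 1.13, adjusted p = 0.0926).

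Among genes that cAMP and the factor CREB induce, more had higher than lower values. Of 18 tested cAMP and CREB target genes 0 were called by edgeR, 7 were higher and 2 lower at an unadjusted p under 0.05, and the median log2 fold change was 0.42. DESeq2 called 5 higher and 2 lower. The orphan nuclear receptors of the NR4A family stood first: Nr4a1 had 86.3, 47.7 and 69.4 CPM in KO and 264, 216 and 212 CPM in KO+P (log2 fold change 1.81, SE 0.36, adjusted p = 0.0614), Nr4a2 had 6.00, 8.16 and 6.93 CPM in KO and 40.2, 35.1 and 23.6 CPM in KO+P (log2 fold change 2.24, adjusted p = 0.0608), and Nr4a3 had 0.581, 0.304 and 1.16 CPM in KO and 6.08, 3.54 and 3.05 CPM in KO+P (log2 fold change 2.62, adjusted p = 0.0666). All 3 were without overlap, and Nr4a1 moved evenly over cultures (log2 ratios 1.61, 2.18 and 1.61). Vegfa, the endothelial growth factor, had 9.68, 6.79 and 5.73 CPM in KO and 36.9, 30.8 and 11.2 CPM in KO+P (log2 fold change 1.78, adjusted p = 0.0619), and the phosphatase Dusp1 had 638, 579 and 606 CPM in KO and 1348, 1031 and 789 CPM in KO+P (log2 fold change 0.77, adjusted p = 0.0733).

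Of 23 tested immediate early genes, which include the NR4A genes, 0 were called, 9 were higher and 1 lower at an unadjusted p under 0.05 (median 0.46, cultures 0.94, 0.35 and 0.09). Of 14 tested glucocorticoid receptor targets 0 were called, 7 were higher and 1 lower (median 0.54), with Tsc22d3 at 33.1, 36.5 and 43.2 CPM in KO and 53.04, 58.4 and 75.2 CPM in KO+P (log2 fold change 0.72, adjusted p = 0.115). Another member, Fkbp5, was lower in each culture, with 8.68, 16.0 and 15.0 CPM in KO and 6.41, 8.96 and 8.16 CPM in KO+P (log2 fold change -0.71, adjusted p = 0.109). Over this list 9 log2 fold changes were above 0 and 5 below it. Ptgs2, cyclooxygenase 2, had 67.2, 228 and 148 CPM in KO and 1581, 1631 and 383 CPM in KO+P (log2 fold change 3.10, adjusted p = 0.0634), and its lowest treated library exceeded its highest untreated one. DESeq2 called 6 immediate early genes higher and 0 lower, and 5 glucocorticoid targets higher and 1 lower.

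Proliferation genes had lower values with propranolol, and none of them passed the edgeR threshold. Of 35 tested genes of S phase and DNA replication 0 were called, 30 were lower and 0 higher at an unadjusted p under 0.05, and all 35 log2 fold changes were below 0 (median -1.04, cultures -1.18, -1.20 and -0.69). Of 33 tested mitosis and G2/M genes 0 were called, 31 were lower and 0 higher, and again all were below 0 (median -1.44, cultures -2.39, -1.36 and -0.67). DESeq2 called 25 and 23 of them lower, and edgeR without KO+P replicate 3 called 26 and 23. Cultures differed in their untreated level, and the KO+P libraries lay below all KO libraries for 3 of the 35 S phase genes and 11 of the 33 mitosis genes, beside 9.11% of all genes.

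Mcm3, a subunit of the replicative helicase, had 44.3, 98.7 and 82.4 CPM in KO and 23.8, 42.9 and 51.0 CPM in KO+P (log2 fold change -0.91, SE 0.16, adjusted p = 0.0509), lower in each culture by a similar ratio (log2 -0.89, -1.20 and -0.69). Mcm2 (log2 fold change -0.998, adjusted p = 0.0652), Mcm6 (log2 fold change -0.63, adjusted p = 0.0619), Mcm7 (log2 fold change -1.13, adjusted p = 0.0702) and the ribonucleotide reductase subunit Rrm1 (log2 fold change -1.04, adjusted p = 0.0652) were next. Mki67, the proliferation marker Ki-67 and chosen after its values were seen, had 16.1, 44.0 and 27.6 CPM in KO and 1.67, 15.5 and 19.1 CPM in KO+P, with log2 ratios of -3.21, -1.50 and -0.53 (log2 fold change -1.62, adjusted p = 0.110). Plk1, a mitotic kinase, had 6.82, 14.9 and 10.2 CPM in KO and 0.625, 4.71 and 5.68 CPM in KO+P (log2 fold change -1.85, adjusted p = 0.0972), and Top2a had 26.6, 74.4 and 47.1 CPM in KO and 3.58, 20.7 and 27.6 CPM in KO+P (log2 fold change -1.84, adjusted p = 0.0984). In bulk RNA, fewer cycling cells and less of these RNAs per cell cannot be told apart. Rapamycin, compared with the same 3 KO libraries, gave medians of -1.04 for S phase and -1.65 for mitosis, and -0.37 for the cholesterol list, where propranolol gave 0.89.

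Of 21 tested p53 targets 0 were called, 4 were higher and 8 lower at an unadjusted p under 0.05 (median -0.23). Plk2 had 488, 358 and 412 CPM in KO and 1092, 641 and 539 CPM in KO+P (log2 fold change 0.81, adjusted p = 0.0776) and Ccng1 had 197, 285 and 249 CPM in KO and 118, 203 and 214 CPM in KO+P (log2 fold change -0.48, adjusted p = 0.0932). The cell cycle inhibitor Cdkn1a (p21), chosen after its values were seen, had 891, 793 and 988 CPM in KO and 989, 856 and 1017 CPM in KO+P (log2 fold change 0.10, adjusted p = 0.623), with overlapping groups. DESeq2 called 2 p53 targets higher and 0 lower.

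**Figure D4:**
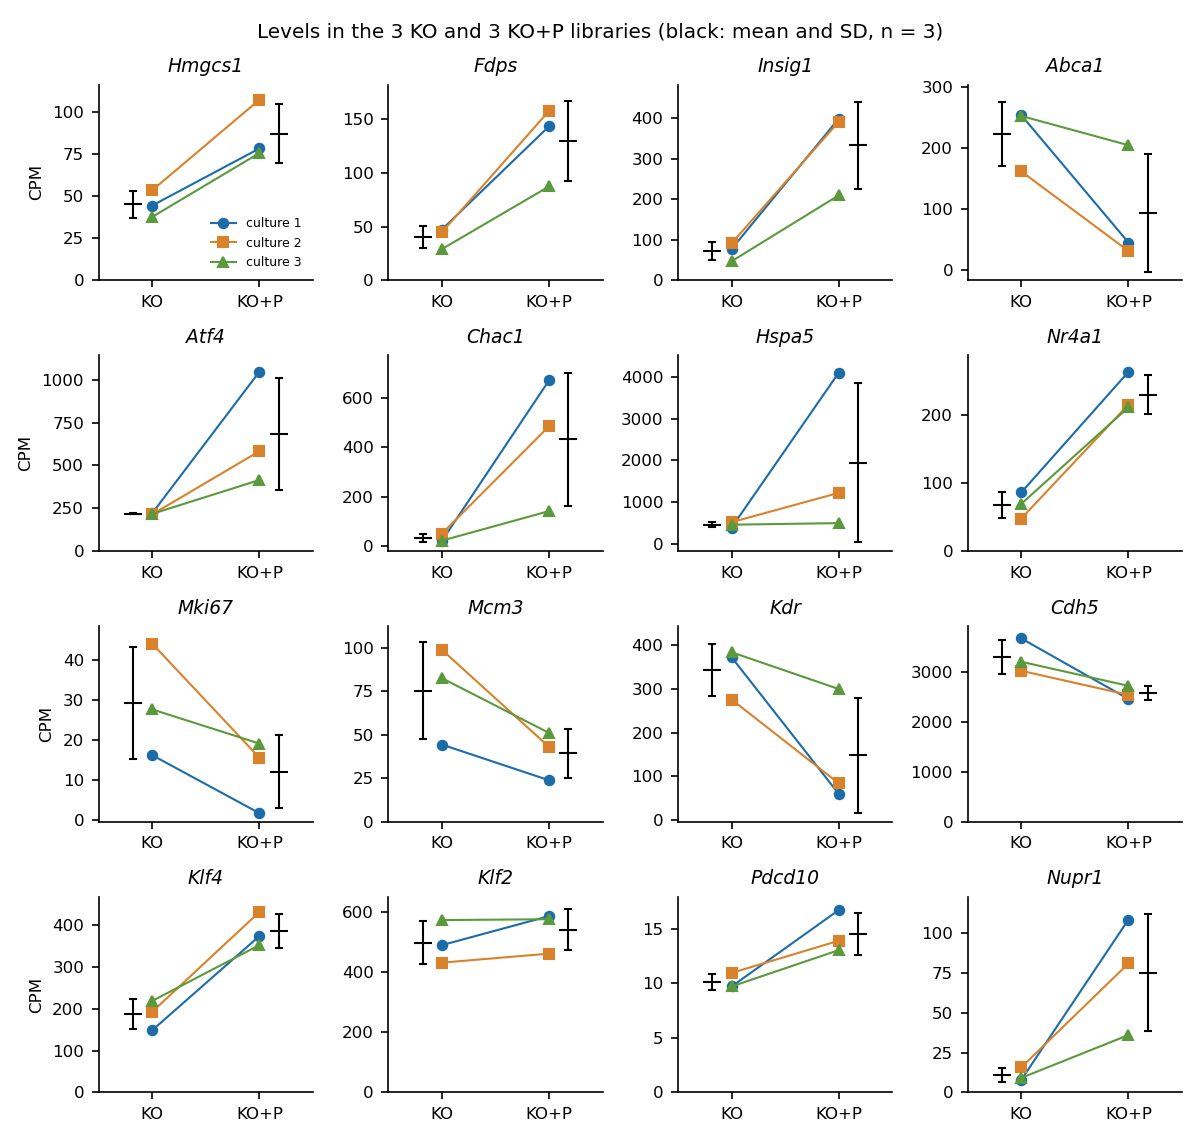
Each panel plots a gene's CPM in the 3 KO and 3 KO+P libraries on an axis that includes 0, with a line joining the libraries of a culture and black bars for the mean and SD (n = 3). The lines of Insig1 slope up in all cultures, those of Hspa5 end far apart, at 4104, 1217 and 490.2 CPM, and those of Kdr and Abca1 slope down steeply in cultures 1 and 2 and little in culture 3.

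Endothelial genes had their lowest ratios in culture 1. Of 28 tested endothelial identity genes 0 were called, 11 were lower and 0 higher at an unadjusted p under 0.05, and the culture medians were -0.64, -0.28 and -0.18. DESeq2 called 5 of them lower. Kdr, the VEGF receptor 2, had 373, 276 and 384 CPM in KO and 59.2, 83.4 and 299.9 CPM in KO+P (log2 fold change -1.48, adjusted p = 0.113), and Mcam had 532, 489.9 and 538 CPM in KO and 119.7, 199 and 345 CPM in KO+P (log2 fold change -1.29, adjusted p = 0.0887). For Kdr the KO+P replicate 3 lay within the KO range, whereas the Mcam groups did not overlap. Tie1 (log2 fold change -0.58, adjusted p = 0.0918), Tek (log2 fold change -0.82, adjusted p = 0.127) and Icam2 (log2 fold change -1.28, adjusted p = 0.129) were the other members with the smallest p-values. The junction protein VE-cadherin, Cdh5, chosen after its values were seen and also the gene whose promoter drives the Cre transgene, had 3662, 3014 and 3195 CPM in KO and 2452, 2533 and 2714 CPM in KO+P (log2 fold change -0.36, adjusted p = 0.162), lower in each culture and without overlap.

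Summed markers of other cells of the brain moved as follows beside these values, in KO and KO+P. Mural cell markers (8 of 12 tested, Higd1b at 0) summed to 71.6 to 206 and 115 to 434 CPM, fibroblast markers (6 of 10, with Lum, Dpt and Slc6a13 at 0) to 12.1 to 152 and 4.79 to 78.2 CPM, and lymphatic endothelial markers (3 of 6) to 269 to 319.6 and 174 to 262 CPM. The mural sum was higher with propranolol in cultures 1 and 2 and lower in culture 3 (153 to 115 CPM). Most mural markers went the other way from the higher sums, with 6 of the 8 log2 fold changes below 0 and 2 above it (median -0.65). Astrocyte markers (3 of 8, Aqp4 at 0) summed to 41.8 to 73.5 and 73.1 to 111 CPM, microglia and macrophage markers (4 of 12, with Adgre1 and P2ry12 at 0) to 9.88 to 26.7 and 14.5 to 23.5 CPM, oligodendrocyte markers (2 of 8, Olig1 at 0) to 48.9 to 58.6 and 29.0 to 44.3 CPM and neuron markers (3 of 8) to 9.60 to 12.4 and 12.8 to 29.6 CPM. Ependymal and choroid plexus markers (0 of 8 tested, with Ttr, Folr1 and Dynlrb2 at 0) stayed below 1 CPM. The part of these cells in the endothelial and matrix results was not tested.

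Notch and arterial genes had the lowest median among the vascular lists. Of 21 tested genes of Notch signalling and arteriovenous identity 0 were called, 10 were lower and 1 higher at an unadjusted p under 0.05, and the median log2 fold change was -0.61. Unc5b, a netrin receptor of arterial and tip cells, came nearest to a call in this list, with 98.8, 90.9 and 86.2 CPM in KO and 46.6, 46.6 and 54.7 CPM in KO+P (log2 fold change -0.91, SE 0.16, adjusted p = 0.0504) and no overlap. Nrarp, a Notch target and feedback inhibitor, had 161, 109.8 and 151 CPM in KO and 10.4, 21.2 and 85.4 CPM in KO+P (log2 fold change -2.12, adjusted p = 0.113), although most of its exonic bases are shared with other genes, and Notch4 had 652, 678 and 635 CPM in KO and 122, 335 and 448 CPM in KO+P (log2 fold change -1.28, adjusted p = 0.113). The gap-junction gene Gja5 had 7.86, 10.4 and 20.6 CPM in KO and 0.749, 4.00 and 10.7 CPM in KO+P (log2 fold change -1.67, adjusted p = 0.102). DESeq2 called 1 gene of the list higher and 5 lower. The chemokine receptor Cxcr4 was higher in each culture, with 805, 295 and 362 CPM in KO and 1297, 468 and 593 CPM in KO+P (log2 fold change 0.69, adjusted p = 0.0918).

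Of 24 tested genes of VEGF, angiopoietins and tip cells 0 were called, 4 were higher and 9 lower (median -0.47). Plxnd1, a semaphorin receptor, had 1034, 1090.0 and 956 CPM in KO and 507, 636 and 725 CPM in KO+P (log2 fold change -0.73, adjusted p = 0.0608), without overlap. Of 22 tested Wnt and β-catenin genes 0 were called, 2 were higher and 8 lower (median -0.40), with the Wnt7 coreceptor Adgra2 at 483, 585 and 526 CPM in KO and 259.5, 388 and 423 CPM in KO+P (log2 fold change -0.59, adjusted p = 0.0766). Dkk2, a secreted Wnt modulator, had 12.1, 22.7 and 8.88 CPM in KO and 22.1, 42.1 and 27.6 CPM in KO+P (log2 fold change 1.12, adjusted p = 0.0652), higher in each culture though the groups overlapped. Of 21 tested tight junction and barrier transporter genes 0 were called, 4 were higher and 5 lower (median -0.31). Mfsd2a, the transporter of lysophospholipids carrying docosahexaenoic acid, had 0.116, 0.304 and 0.133 CPM in KO and 2.96, 2.58 and 0.413 CPM in KO+P (log2 fold change 3.30, adjusted p = 0.0787), scarcely expressed without propranolol. The tight junction claudin Cldn5, chosen after its values were seen, had 2125, 1563 and 2151 CPM in KO and 1039, 988 and 1825 CPM in KO+P (log2 fold change -0.63, adjusted p = 0.232). DESeq2 called 3 higher and 5 lower in the VEGF list, 2 higher and 3 lower in the Wnt list, and 3 higher and 0 lower in the barrier list.

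Of 38 tested extracellular matrix and basement membrane genes 0 were called, 13 were lower and 0 higher at an unadjusted p under 0.05, and the median log2 fold change was -0.50. The abundant basement membrane genes Col4a1 (5296, 4690.0 and 5703 CPM in KO and 3161, 3600.0 and 4494 CPM in KO+P; log2 fold change -0.48, adjusted p = 0.102), Col18a1 (log2 fold change -0.42, adjusted p = 0.0969) and Hspg2 (1672, 1561 and 1743 CPM in KO and 737, 942 and 1241 CPM in KO+P; log2 fold change -0.80, adjusted p = 0.0982) did not overlap between groups. Of 17 tested coagulation and fibrinolysis genes 0 were called, 7 were lower and 0 higher. Plau, urokinase, had 295, 322 and 309.8 CPM in KO and 49.6, 106 and 188 CPM in KO+P (log2 fold change -1.55, adjusted p = 0.0787), without overlap, and F2rl3, the thrombin receptor PAR4, had 37.3, 30.2 and 32.6 CPM in KO and 7.37, 12.1 and 18.1 CPM in KO+P (log2 fold change -1.50, adjusted p = 0.0839). DESeq2 called 3 matrix genes and 3 coagulation genes lower and 0 higher.

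The pathway downstream of Ccm3 loss showed no common direction. Of 25 tested genes of the MEKK3, KLF2 and KLF4 axis 0 were called by edgeR, 5 were higher and 5 lower at an unadjusted p under 0.05, and the median log2 fold change was 0.06. DESeq2 called 1 higher and 2 lower. Klf2 had 489, 431 and 572 CPM in KO and 585, 461 and 575 CPM in KO+P (log2 fold change 0.12, SE 0.41, adjusted p = 0.877), with overlapping groups. Klf4 had 149, 193 and 219 CPM in KO and 375, 432 and 353 CPM in KO+P, higher in each culture and without overlap, so that the treated values moved further from the WT values of 68.5, 106 and 28.5 CPM (log2 fold change 1.05, SE 0.37, adjusted p = 0.132). The proteases Adamts4 and Adamts1, which cut the versican of the vessel wall, differed in sign, with 60.8, 76.5 and 70.7 CPM in KO and 26.2, 38.6 and 40.7 CPM in KO+P for the former (log2 fold change -1.01, adjusted p = 0.0835) and 227, 180.5 and 248 CPM in KO and 243, 465 and 301 CPM in KO+P for the latter (log2 fold change 0.64, adjusted p = 0.267). Nos3, endothelial nitric oxide synthase, had 869, 1197 and 1300.0 CPM in KO and 566, 977 and 1049 CPM in KO+P (log2 fold change -0.41, adjusted p = 0.419), and the angiogenesis inhibitor Thbs1 had 1928, 1686 and 1516 CPM in KO and 1805, 1253 and 1637 CPM in KO+P (log2 fold change -0.14, adjusted p = 0.610).

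Of 13 tested genes of the CCM complex and the GCKIII kinases that bind Ccm3 0 were called, 1 was higher and 3 lower (median -0.10). Heg1, the transmembrane receptor that anchors the complex, had 762, 944 and 1108 CPM in KO and 174, 405 and 849.7 CPM in KO+P (log2 fold change -1.13, adjusted p = 0.138), lower in each culture, and Itgb1bp1, an integrin-binding partner of Krit1, had 40.2, 39.4 and 42.5 CPM in KO and 65.0, 56.6 and 52.2 CPM in KO+P (log2 fold change 0.51, adjusted p = 0.0636). Of 23 tested ID genes, SMADs and BMP signalling genes 0 were called, 2 were higher and 5 lower (median -0.27). Id1, a BMP target, had 119.6, 122 and 128 CPM in KO and 46.7, 64.4 and 99.8 CPM in KO+P (log2 fold change -0.83, adjusted p = 0.110), without overlap, and Id3 had 37.1, 28.1 and 27.5 CPM in KO and 42.9, 24.5 and 24.4 CPM in KO+P (log2 fold change -0.03, adjusted p = 0.909), with overlap. The ligand Bmp2 had 91.6, 57.4 and 55.8 CPM in KO and 294, 159 and 84.2 CPM in KO+P (log2 fold change 1.34, adjusted p = 0.0980). DESeq2 called 1 gene of the CCM list lower and 0 higher, and 1 of the BMP list higher and 2 lower.

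Of 25 tested TGF-β and endothelial-mesenchymal transition genes 0 were called, with 2 higher and 4 lower, and Tgfb2 had 72.8, 122 and 68.4 CPM in KO and 167, 243 and 134 CPM in KO+P without overlap (log2 fold change 1.05, adjusted p = 0.0733), whereas the receptor Tgfbr2 had 1617, 1175 and 1406 CPM in KO and 392, 582 and 1144 CPM in KO+P (log2 fold change -1.07, adjusted p = 0.110). Of 20 YAP and TAZ targets 0 were called, with 4 higher and 5 lower, and of 24 genes of RhoA, ROCK and myosin contractility 0 were called, with 2 higher and 7 lower. Rnd1, an antagonist of RhoA, had 188, 247 and 142 CPM in KO and 974, 598 and 244 CPM in KO+P (log2 fold change 1.498, adjusted p = 0.0904), and Myh9, non-muscle myosin heavy chain, had 1907, 1613 and 1585 CPM in KO and 1353, 1088 and 1350.0 CPM in KO+P (log2 fold change -0.43, adjusted p = 0.102). DESeq2 called 1 higher and 2 lower in the TGF-β list, 2 higher and 2 lower among YAP and TAZ targets, and 1 higher and 0 lower in the RhoA list.

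Lysosomal genes, which TFEB switches on under lysosomal stress, gave small differences. Of 41 tested genes of lysosome and V-ATPase 0 were called, 13 were higher and 2 lower at an unadjusted p under 0.05 (median 0.07). The proton pump subunits Atp6v1g1 (172, 149 and 142 CPM in KO and 303, 214 and 176 CPM in KO+P; log2 fold change 0.56, adjusted p = 0.0613) and Atp6v0e (log2 fold change 0.35, adjusted p = 0.0759) were without overlap, and Npc2, which carries cholesterol inside lysosomes, had 362, 346 and 329.9 CPM in KO and 407, 426 and 394 CPM in KO+P (log2 fold change 0.24, adjusted p = 0.125). Of 19 tested genes of phospholipid hydrolases and lysosomal lipid handling 0 were called, with 4 higher and 0 lower (median -0.01). DESeq2 called 0 genes in both lists.

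Of 31 tested glycolysis and hypoxia genes 0 were called, with 3 higher and 7 lower at an unadjusted p under 0.05 (median -0.32). Without overlap 1 was higher and 7 lower, beside 9.58% and 9.11% of all genes. Of 47 nuclear oxidative phosphorylation genes 0 were called, with 1 higher and 0 lower at an unadjusted p under 0.05 (median 0.01), and of 13 mitochondrially encoded subunits 0 were called, with 1 higher and 1 lower. Of 64 cytosolic ribosomal protein genes 0 were called, 15 were higher and 0 lower, and 63 log2 fold changes were above 0 (median 0.22). Of 32 interferon and antigen presentation genes 0 were called, with 2 higher and 6 lower, where the helicase Rigi had 81.3, 78.5 and 71.7 CPM in KO and 39.4, 52.8 and 64.4 CPM in KO+P (log2 fold change -0.57, adjusted p = 0.126) and the antiviral Rsad2 had 6.16, 11.7 and 7.82 CPM in KO and 58.7, 35.3 and 12.3 CPM in KO+P (log2 fold change 2.03, adjusted p = 0.102). Of 20 leukocyte adhesion and chemokine genes 0 were called, with 6 higher and 1 lower, and Cxcl1, a neutrophil chemokine, had 4.61, 7.25 and 5.46 CPM in KO and 33.4, 17.8 and 9.91 CPM in KO+P without overlap (log2 fold change 1.61, adjusted p = 0.0999). DESeq2 called 1 higher and 1 lower in the glycolysis list, 1 higher and 0 lower among oxidative phosphorylation and among ribosomal protein genes, 0 among mitochondrially encoded subunits, 1 higher and 3 lower among interferon genes and 4 higher and 0 lower among leukocyte adhesion genes.

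Genes of a published list that separates KO from WT, 168 in number, were all tested here. Of these 1 rose (Sox11), 0 fell, 26 were higher and 29 lower at an unadjusted p under 0.05, and the median log2 fold change was -0.27. The list was chosen on these samples, the KO libraries among them, so it is not independent evidence of a direction. DESeq2 called 15 higher and 11 lower.

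The WT libraries differ from the KO and KO+P libraries, but all entered the same fit and share its estimate of the spread, so the comparisons are not independent. In WT cells propranolol gave 11 genes called higher and 1 lower, which is 0.0741% and 0.00674% of the genes tested. At an unadjusted p under 0.05, 1311 were higher (8.84%) and 682 lower (4.6%). The 12 were Fdps, Msmo1, Hmgcs1, Insig1, Cyp51, Srebf2, Lss, Fasn, Nr4a1, Dkk2, Atp2a3 and Exosc6, of which 9 were also called in KO. Insig1 had 56.9, 49.4 and 58.1 CPM in WT and 398 and 205 CPM in WT+P, and Fdps had 24.1, 33.8 and 29.0 CPM and 85.6 and 81.3 CPM. Of the 24 cholesterol genes 21 were higher in WT+P at an unadjusted p under 0.05, with culture medians of 1.12 and 0.90, and of the 33 ATF4 genes 29 were higher, with culture medians of 2.52 and 0.61. As in KO cells, culture 1 changed more than culture 2 in the ATF4 list, and WT culture 1 is the culture with the library labelled WT replicate 1. Of the S phase and mitosis genes 0 were lower at an unadjusted p under 0.05 in WT+P, with culture medians of -0.64 and -0.67 for S phase and -1.59 and -0.76 for mitosis. Mki67 had 7.50, 36.4 and 8.24 CPM in WT and 2.40 and 24.1 CPM in WT+P, so that untreated WT replicates 1 and 3 were within the range of the treated KO libraries.

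**Figure D5:**
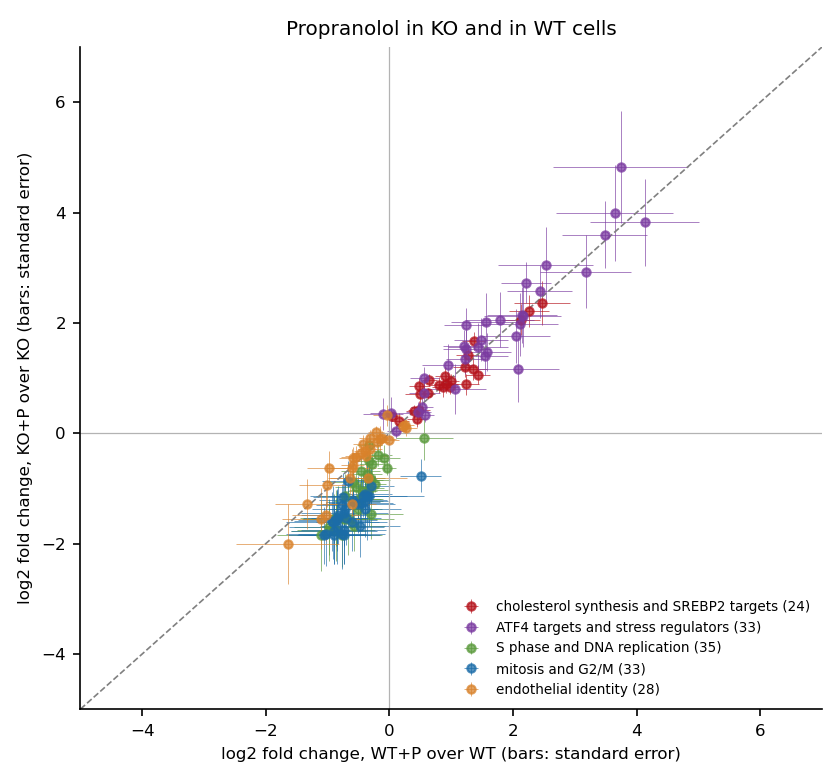
Each point is a gene of 5 lists, with its log2 fold change WT+P over WT on the x axis and KO+P over KO on the y axis, bars for the standard errors and a dashed line where both are equal. Nearly all cholesterol and ATF4 genes lie in the upper right, and most S phase and mitosis genes lie below it in the lower left.

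Whether the response differs between KO and WT was tested as an interaction of propranolol and genotype label. It called 0 of 14838 genes (0.0%) by edgeR, with 422 at an unadjusted p under 0.05, and DESeq2 called 2, Fkbp3 and Gm29331, the latter with all of its exonic bases shared. Without the library labelled WT replicate 1 edgeR called 0, with 456 at an unadjusted p under 0.05. For Insig1 the difference of the log2 fold changes, KO minus WT, was -0.04, SE 0.42, unadjusted p = 0.921, and for Hmgcs1 it was -0.05, SE 0.18, unadjusted p = 0.800. For Mcm3 it was -0.68, SE 0.24, unadjusted p = 0.0157 and for Mki67 -1.01, SE 0.76, unadjusted p = 0.211, and every adjusted p was 1. The 5 genes with the smallest p were Kif14, Fkbp3, Fibp, Lhx6 and Tmem91. Fkbp3, a nuclear FK506-binding protein, had 43.1, 33.4 and 30.9 CPM in KO and 58.0, 46.8 and 43.6 CPM in KO+P, against 48.5, 43.7 and 44.1 CPM in WT and 49.4 and 37.8 CPM in WT+P (difference 0.62, SE 0.12, unadjusted p = 0.000322). Kif14, a mitotic kinesin, had 0, 7.55 and 3.86 CPM in KO and 0, 2.42 and 2.69 CPM in KO+P, beside 0, 0.0374 and 0 CPM in WT and 0 and 3.39 CPM in WT+P, so that its fitted difference rests on libraries at or near 0. Lhx6, a LIM homeobox factor, had 15.7, 30.3 and 17.1 CPM in WT and 41.1 and 44.2 CPM in WT+P, beside 16.1, 26.9 and 21.9 CPM in KO and 14.4, 21.9 and 17.9 CPM in KO+P (difference -1.26, SE 0.29, unadjusted p = 0.00112).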

How the data were processed

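RNA of mBMEC, poly(A)-selected and sequenced without strand information, was measured by the authors in 16 libraries, of which the 3 KO+P and 3 KO libraries are the main comparison. The deposited files give, for each transcript, an expected count and TPM from Salmon 1.5.2, together with the transcript's effective length as another deposited column. The index behind them is not given in the sources used here, and Salmon divides reads shared by overlapping transcripts by estimation. Per the labels, reads were trimmed with Trim Galore 0.6.7, and STAR, HTSeq 0.13.5 and DESeq2 1.34.0 were also used in the study.

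Expected counts were summed per gene (GENCODE vM39, GRCm39) and rounded; 0.39 to 0.57% of counts a library had no matching transcript. Genes were filtered with edgeR's filterByExpr (14838 of 27228 with any count were kept), scaled by TMM (factors 0.9344 to 1.041), and tested in edgeR 4.0.16 (R 4.3.3) with the quasi-likelihood test over all 16 libraries, with group and replicate number as terms (8 residual degrees of freedom, typical biological variation 19%, or 32.31% without the replicate term) and Benjamini-Hochberg adjustment over all genes tested. CPM are scaled by the TMM factors, and log2 ratios within cultures add a prior count of 2. Standard errors (SE) were worked back from the test, as the size of the log2 fold change divided by the square root of the F statistic. A gene was called, and said to rise or fall, at an adjusted p under 0.05 and a fold change above 1.5. DESeq2 1.42.0 was an alternative. The test was also run on simulated counts with known changes, drawn from the levels and spread fitted to these data. Each change was the same in all cultures, unlike in the data, and the outcome is not reported here. Counting sets the precision at low levels; the spread between cultures sets it elsewhere.

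The replicate numbers were taken to pair libraries: the deviations of KO and KO+P from their group means correlated at 0.484, 0.581 and 0.306 for equal numbers and at -0.502 to -0.0261 for unequal ones. Deviations from a group mean cancel out within the group, so positive values for equal numbers bring negative ones for unequal numbers. The other groups were not checked in this way, although the replicate term covers all 16 libraries. That libraries with 1 number come from the same culture is not stated outright by the labels, and if they do not, p-values measure only the spread between these samples. No 2 libraries held identical counts.

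Members, lists and thresholds were chosen with earlier results of these data known. Genes were named by rule: Pdcd10, Klf2, Klf4, Nos3, Adamts1, Thbs1, Id3 and β-adrenergic receptors; called genes that averaged 1 CPM or more; up to 5 genes of each list with the smallest p; and the 5 smallest interaction p-values. Some genes that the rule takes in are not reported here. Genes named outside it, after their values were seen, were Aars1, Acat2, Atf3, Atp2a3, Cdh5, Cdkn1a, Cldn5, Ddit3, Dhcr7, Ebp, Gm29331, Hsd17b7, Idi1, Mki67, Mthfd2, Mvk, Nsdhl, Pck2, Phgdh, Psat1, Sc5d, Sdf2l1, Shmt2, Stard4, Tm7sf2, Trib3 and Vldlr. Of the genes named, Adrb3, Cyp51, Ddit3, Exosc6, Fdft1, Gm29331, Hspa5, Icam2, Itgb1bp1, Lpcat3, Mars1, Mid1ip1, Mvd, Nos3, Nrarp, Nupr1, Sox18, Tmem91 and Yars1 share over 20% of their exonic bases with other genes and are uncertain to that degree. Columns of comparisons by the authors were not among the files used.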

Additional observations from a re-analysis of the deposited data

Results flagged for a closer look

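The medians of 3 gene lists moved one way in every KO culture and the other way in every WT culture. These lists were picked for this pattern from all the pathway gene lists, and the differences of their medians were not tested. Gene by gene, the edgeR interaction had an unadjusted p under 0.05 for 2 of 64 ribosomal protein genes. It did so for 0 of 25 TGF-β genes and 1 of 24 RhoA genes, beside 422 of 14838 genes tested. The median log2 ratio of the cytosolic ribosomal protein genes was 0.44, 0.14 and 0.10 in KO cultures 1, 2 and 3 and -0.21 and -0.04 in WT cultures 1 and 2, with a difference of 0.288 between the medians of the fitted log2 fold changes, KO minus WT. The median of the TGF-β and endothelial-mesenchymal transition genes was -0.23, -0.13 and -0.02 in KO and 0.03 and 0.13 in WT (difference -0.186), and that of the RhoA, ROCK and myosin genes was -0.21, -0.07 and -0.05 in KO and 0.09 and 0.06 in WT (difference -0.141). WT culture 1 holds the library labelled WT replicate 1, whose Pdcd10 level was that of KO.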

How the results depend on the processing

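The number of genes called, 21 with edgeR and the replicate block over all libraries, depended on the fit. Without the replicate block it was 1, with the 6 KO and KO+P libraries alone 3, with the 9 KO, KO+P and KO+R libraries 403 (48.88% of them higher), with DESeq2 934 with the block (45.07% higher) and 164 without it (82.32% higher), without a filter on low counts 194 (70.1% higher) and with at least 1 CPM in 3 libraries 51 (86.27% higher), where edgeR with the block gave 95.24% higher. Scaling by DESeq2 size factors gave 29 (82.76% higher), a test against a fold change of 1.5 gave 3, and leaving out genes that share exonic bases gave 11. Leaving out a KO or KO+P library gave 0 to 1577 calls, and leaving out all libraries numbered 1, 2 or 3 gave 0, 1 and 329. All 21 genes were among those called with DESeq2 and the block, with the 9 libraries and without KO+P replicate 3. The interaction called 0 genes with and without the block and 2 with DESeq2. The causes were not tested. Each of the 21 called genes kept its direction over the 20 alternative fits. Fdps, for example, had a log2 fold change of 1.60 to 1.80 and was called in 14 of the 20, as was Exosc6, and each of the other genes was called in 8 to 11.

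Of the genes named, 4 that were not called turned direction in some fits. Leaving out a KO or KO+P library gave log2 fold changes of -0.0702 to 0.34 for Klf2, -0.28 to 0.22 for Adrb3 and -0.26 to 0.0739 for Id3. Leaving out all libraries of a replicate number turned Thbs1 to 0.00943 (number 2), Id3 to 0.0432 (number 2) and 0.0279 (number 3), and Adrb3 to 0.20 (number 3). Depth limits genes with few counts such as Adrb1. KO+P replicate 3 was the shallowest library and moved least on the first principal component and in the ATF4 list. In the lipid lists it did not: cultures 1, 2 and 3 had medians of 0.83, 1.07 and 0.91 for cholesterol and 0.30, 0.57 and 0.66 for fatty acid genes. The part of depth was not tested.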
